A study of Mus musculus with 10 samples.

Results

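The genes studied here encode the nuclear end of the Hippo pathway and its closest regulators: the co-activators Yap1 and Wwtr1 (TAZ), the DNA-binding factors Tead1, Tead2, Tead3 and Tead4, the kinases Lats1 and Lats2, and the adaptor proteins Amotl2 and Ajuba. Chromatin accessibility at these 10 genes was read from the ATAC-seq peaks of 10 samples, deposited as 9 lists, each called a library here. A peak was taken as belonging to a gene when its summit lay inside the gene or within 25 kb of it on mm10, which chose 1454 of the 1071660 summits in the 9 lists. The summits of all libraries, extended by 250 bp on each side, gave 241 regions at these genes out of 184764. Of these, 43 lay within 1 kb of an annotated start of a protein-coding transcript and 198 lay farther away and are called distal. The outermost region inside the limit lay 24.51 kb from Lats2 and was called in 9 libraries at a mean percentile of 93.9, and the nearest one outside lay 25.05 kb from Tead3, was called in 9 libraries and had a mean percentile of 74.2.

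In the Hippo pathway, the LATS kinases phosphorylate YAP and TAZ, which then stay in the cytoplasm or are degraded. When the kinases are inactive, YAP and TAZ enter the nucleus and bind TEAD factors, since neither co-activator binds DNA on its own. TEAD factors recognise a short motif that contains GGAATG. In the epicardium, the mesothelial cell layer that covers the heart, YAP and TAZ are known to be needed for the epithelial-to-mesenchymal transition by which epicardium-derived cells (EPDCs) arise and for the later fates of those cells.

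All cells came from C57BL/6J mouse embryos of the genotype Rosa26tdTomato;Wt1CreERT2/+, in which tamoxifen given at E9.5 switches on tdTomato in cells with an active Wt1 promoter. The E11.5 epicardium (3 libraries, each from 6 pooled hearts) and the E17.5 epicardium (3 libraries, each from 4 pooled hearts) were sorted as CD31-tdTomato+PDPN+ cells. The EPDCs were sorted as CD31-tdTomato+PDPN- cells from E12.5 (1 library) and E13.5 (2 libraries, from 4 to 13 pooled hearts) hearts, and the technical replicates of E13.5 sample 2 share 1 list. A library is therefore a pool of embryos, tdTomato marks the descendants of cells that expressed Wt1 at labelling, and the EPDC group differs from both epicardial groups in stage as well as in PDPN.

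For each region or promoter, the strongest summit of a library was given its rank percentile by −log10 p among all summits of that library, and 0 where no summit was called. A value of 0 means below the threshold of the peak caller, not closed. The weakest called summit held between 9 and 24 fragments, depending on the library. In sorted bulk cells, fewer open cells and less opening per cell cannot be told apart. A difference between groups was called when every library of one group lay above every library of the other, and the two-sided exact permutation test of the group means was added for promoters and for the strongest distal regions. For regions named because their difference was among the largest of those called, no p is given, since the choice largely sets it. The smallest p it can give is 0.10 for 3 against 3 libraries and 0.0119 for 3 against 6.

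The libraries held 94909 to 142743 summits, with a median of 35 to 94 fragments at a summit, and E13.5 EPDC sample 2 had the deepest genome background (10.9 fragments per position against 2.07 to 4.26 in the others). The EPDC lists also held 252 to 268 summits on sequences outside the main chromosomes and the epicardial lists held 0, so processing and cell population cannot be told apart in that comparison. Among markers of the sort, the promoters of the epicardial genes Wt1, Tbx18 and Tcf21 were called in all 9 libraries. Of the 9 epicardial markers, 4 promoters were called lower in EPDCs and 0 higher. The promoter of Upk3b, a mesothelial surface gene, lay at 97.0 to 99.2 in the epicardium and at 22.8 to 73.6 in EPDCs, and is one of the 4. Of the 6 mesenchymal markers, 1 promoter was called higher in EPDCs and 1 lower, with a median difference of −1.42 points over the list. The higher one was Postn, at 71.7 to 81.8 in EPDCs, at 43.5 to 50.2 in the E17.5 libraries and at 0 in those of E11.5. The lower one was Dcn (a difference of −5.95), and the differences of Pdgfra, Pdgfrb and Col1a1 (−10.5, −1.81 and −1.04) and of Col3a1 (14.8) did not pass. Of 5 endothelial, 5 cardiomyocyte and 5 blood markers, the defining genes Cdh5, Emcn, Myh6, Ptprc and Spi1 were at 0 in all 9 libraries, and Pecam1 was called only in the E13.5 EPDC libraries (25.5 and 36.7). The mean percentile of the 5 endothelial markers was 34.7 to 35.1 at E11.5, 34.2 to 34.8 at E17.5 and 34.5 to 42.9 in EPDCs. That of the 5 blood markers was 24.7 to 28.0 at E11.5, 34.0 to 43.1 at E17.5 and 12.1 to 19.1 in EPDCs, and that of the 5 cardiomyocyte markers was 44.9 to 49.1, 39.7 to 46.3 and 33.6 to 34.9. These means hide stage calls in both directions. At E17.5, Myl7 was higher and Tnnt2 and Actn2 lower, and the blood markers Cd68 and Hbb-bs were higher. Epicardial markers had 2 higher and 4 lower, mesenchymal markers 3 and 1, and endothelial markers 0 and 0. Of all promoters, 7.87% were higher and 18.6% lower. The part of these other cells in the differences below was not tested.

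The sequences that carry the results are given first. The reference table of promoters (RefSeq, GRCm38.p6) held 12 annotated starts for 8 of the 10 genes, with none used for Tead1 and Tead4. In the 250 bases before the start, 5 of these 8 genes (Yap1, Wwtr1, Tead3, Amotl2 and Ajuba) held the TEAD letters GGAATG on either strand, which is 62.5% of them, against 14.4% of all 27025 genes in the table and 12.8% of the 10882 genes whose promoters were called in all 9 libraries. No test was made of this share over 8 genes, some of whose listed starts overlap. Over accessible regions the contrast was smaller. Of the 43 regions within 1 kb of a start, 11 (25.6%) held the TEAD letters, against 21.1% of all 26199 such regions. The letters lay 141 bases before the Yap1 start and 136 bases before the first Wwtr1 start, on the strand of the gene in both. At Ajuba they occurred 186 and 164 bases before the start, and at Amotl2 once, 65 bases before it. Promoters of 4 of the genes are printed 5′ to 3′ on the strand of the gene, with TEAD letters in capitals and without bases annotated as exons.
Yap1 promoter (chr9:8004597-8004846, - strand): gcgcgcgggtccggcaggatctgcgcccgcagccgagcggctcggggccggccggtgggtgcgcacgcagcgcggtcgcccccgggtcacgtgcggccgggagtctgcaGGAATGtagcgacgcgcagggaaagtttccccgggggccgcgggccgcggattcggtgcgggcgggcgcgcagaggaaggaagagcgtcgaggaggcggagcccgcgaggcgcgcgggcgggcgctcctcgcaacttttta
Wwtr1 promoter (chr3:57575911-57576160, - strand): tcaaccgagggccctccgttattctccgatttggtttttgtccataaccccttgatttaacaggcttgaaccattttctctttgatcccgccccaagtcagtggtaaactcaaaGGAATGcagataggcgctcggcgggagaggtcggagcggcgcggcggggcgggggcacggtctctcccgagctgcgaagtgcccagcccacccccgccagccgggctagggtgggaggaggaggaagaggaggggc
Tead3 promoter (chr17:28350818-28351055, - strand): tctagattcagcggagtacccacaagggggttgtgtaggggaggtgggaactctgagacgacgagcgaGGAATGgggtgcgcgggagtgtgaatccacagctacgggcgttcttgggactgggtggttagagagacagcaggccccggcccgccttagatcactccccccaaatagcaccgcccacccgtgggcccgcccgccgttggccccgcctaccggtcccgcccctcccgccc
Ajuba promoter (chr14:54577662-54577911, - strand): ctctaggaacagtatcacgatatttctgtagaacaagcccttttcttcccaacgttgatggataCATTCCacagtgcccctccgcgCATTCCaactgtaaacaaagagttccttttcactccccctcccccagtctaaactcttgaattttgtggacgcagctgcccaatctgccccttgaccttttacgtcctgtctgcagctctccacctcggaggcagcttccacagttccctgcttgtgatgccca

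Of the distal regions, 7 are printed because the comparisons turn on them: the strongest region of Tead1, a region that appeared and one that was lower at E17.5 at Tead1, a Wwtr1 region that was lower at E17.5, a Wwtr1 region found only in epicardium, an Amotl2 region found only in EPDCs, and the strongest region of Ajuba. Each line holds 300 bases of the region, on the forward strand of GRCm38.p6. The 300 bases were chosen to hold the most matches to the letters below and, among equals, to lie nearest the centre. Capitals mark the letters searched on both strands. They were GGAATG for TEAD factors. For the AP-1 family the letters TGANTCA were used. For GATA factors the search was for AGATAA.
Tead1 22.9 kb upstream (chr7:112656263-112656562, + strand): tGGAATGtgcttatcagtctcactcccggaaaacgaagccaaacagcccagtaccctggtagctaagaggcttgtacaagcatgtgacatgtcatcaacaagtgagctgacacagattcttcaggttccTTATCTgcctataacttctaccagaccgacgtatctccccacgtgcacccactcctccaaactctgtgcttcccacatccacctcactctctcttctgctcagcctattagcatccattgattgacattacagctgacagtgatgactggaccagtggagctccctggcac
Tead1 intron, gained at E17.5 (chr7:112688735-112689034, + strand): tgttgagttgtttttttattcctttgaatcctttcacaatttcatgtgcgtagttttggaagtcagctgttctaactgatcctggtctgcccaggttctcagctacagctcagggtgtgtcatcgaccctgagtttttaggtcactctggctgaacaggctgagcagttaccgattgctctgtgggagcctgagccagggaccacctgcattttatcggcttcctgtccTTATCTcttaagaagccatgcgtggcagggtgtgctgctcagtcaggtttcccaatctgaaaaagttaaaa
Tead1 intron, lower at E17.5 (chr7:112770759-112771058, + strand): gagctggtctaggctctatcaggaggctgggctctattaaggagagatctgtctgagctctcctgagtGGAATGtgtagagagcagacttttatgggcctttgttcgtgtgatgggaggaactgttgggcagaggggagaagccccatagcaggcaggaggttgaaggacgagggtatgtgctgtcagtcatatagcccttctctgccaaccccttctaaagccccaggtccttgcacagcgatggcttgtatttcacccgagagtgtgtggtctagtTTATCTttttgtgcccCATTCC
Wwtr1 10.3 kb upstream (chr3:57586024-57586323, + strand): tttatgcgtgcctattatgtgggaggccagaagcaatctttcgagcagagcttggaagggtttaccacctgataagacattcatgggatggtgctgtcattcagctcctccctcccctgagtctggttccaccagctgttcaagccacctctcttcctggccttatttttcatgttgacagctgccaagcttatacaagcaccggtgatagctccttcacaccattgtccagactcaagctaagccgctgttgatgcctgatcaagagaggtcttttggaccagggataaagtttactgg
Wwtr1 intron, epicardium only (chr3:57550877-57551176, + strand): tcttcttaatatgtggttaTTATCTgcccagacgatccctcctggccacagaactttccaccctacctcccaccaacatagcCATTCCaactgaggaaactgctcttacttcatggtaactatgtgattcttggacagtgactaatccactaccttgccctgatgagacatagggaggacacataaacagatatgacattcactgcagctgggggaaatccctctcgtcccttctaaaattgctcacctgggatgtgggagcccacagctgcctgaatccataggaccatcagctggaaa
Amotl2 23.9 kb upstream, EPDC only (chr9:102692642-102692941, + strand): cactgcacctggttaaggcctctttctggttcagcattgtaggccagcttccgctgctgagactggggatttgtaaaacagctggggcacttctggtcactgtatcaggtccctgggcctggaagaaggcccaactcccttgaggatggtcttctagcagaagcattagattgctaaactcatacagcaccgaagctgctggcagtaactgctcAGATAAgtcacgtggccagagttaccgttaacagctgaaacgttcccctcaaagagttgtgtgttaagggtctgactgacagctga
Ajuba intron (chr14:54572813-54573112, + strand): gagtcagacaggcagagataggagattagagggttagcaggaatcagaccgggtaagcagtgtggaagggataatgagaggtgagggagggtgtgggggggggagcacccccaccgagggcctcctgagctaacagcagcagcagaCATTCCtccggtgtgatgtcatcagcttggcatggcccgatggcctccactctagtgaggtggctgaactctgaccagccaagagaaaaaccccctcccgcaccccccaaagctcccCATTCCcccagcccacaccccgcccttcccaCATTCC

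Over the 198 distal regions, TEAD letters were present in 36.4%, against 35.1% of all 158565 distal regions. AP-1 letters were present in 23.7% against 24.8%, and GATA letters in 26.8% against 32.8%. A motif match is a description of these windows and not a bound site.

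The promoters of all 10 genes were called in all 9 libraries, between percentiles 70.6 and 98.7. This was common, since 10882 of the 27025 genes in the promoter reference were also called in all 9. The highest was that of Wwtr1, at 97.8, 98.7 and 98.2 in the E11.5 libraries, 96.9, 97.1 and 96.6 at E17.5, and 97.3, 97.8 and 97.8 in EPDCs. The Yap1 promoter lay lower, at means of 94.5 ± 0.4, 93.7 ± 1.0 and 93.8 ± 2.4 in the same groups (SD, n = 3 each). The ranges of these 2 paralogous co-activators did not meet in any group. The promoters of Tead3 (92.1 to 97.0) and Tead4 (91.4 to 96.7) overlapped that of Yap1, and those of Lats1 (88.3 to 92.7), Lats2 (87.1 to 93.5), Amotl2 (88.3 to 94.4) and Tead1 (83.5 to 93.1) overlapped one another. The lowest were Tead2 (70.6 to 88.5) and Ajuba (71.3 to 85.6).

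**Figure D1:**
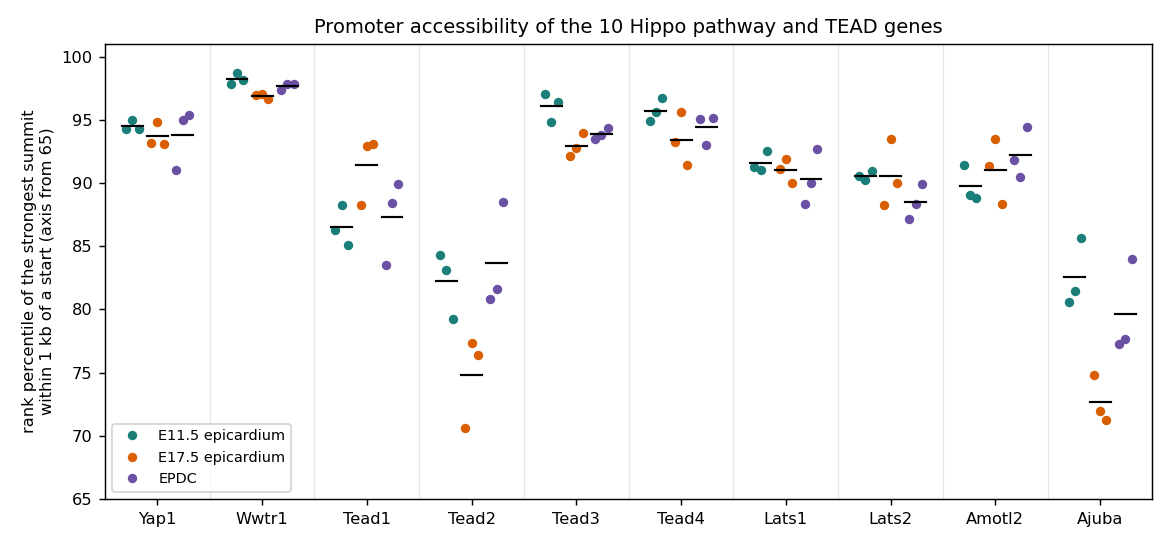
Rank percentile of the strongest summit within 1 kb of a start for each of the 10 genes; the axis starts at 65, points are the libraries of E11.5 epicardium, E17.5 epicardium and EPDC (3 each), and bars are group means. All points lie between 70.6 and 98.7, Tead2 and Ajuba lie lowest, and their E17.5 points lie below their E11.5 points.

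Between E11.5 and E17.5, the ranks of 4 promoters fell and that of 1 rose, against 18.6% of all 21829 promoters that were called lower and 7.87% called higher. Tead1, the TEAD with the longest gene here, rose from 86.5 ± 1.6 to 91.4 ± 2.8 (SD, n = 3 each). Its early libraries read 86.3, 88.2 and 85.1 and its late ones 88.2, 92.9 and 93.1, so the lowest E17.5 value lay beside the highest E11.5 value. Ajuba, a LIM-domain protein that can restrain the LATS kinases, fell from 82.5 ± 2.7 to 72.7 ± 1.9, with 80.6, 81.4 and 85.6 before and 74.8, 71.9 and 71.3 after. Tead2 fell from 82.2 ± 2.6 to 74.8 ± 3.6, Tead3 from 96.1 ± 1.1 to 92.9 ± 0.9 and Wwtr1 from 98.2 ± 0.4 to 96.9 ± 0.2. The direction of these falls depended on the scale. Counted as fragments over the genome background of each library, 8 of the 10 promoters were higher at E17.5 and none lower, beside 49.5% of all promoters higher and 6.04% lower, and the differences of Wwtr1, Tead2, Tead3 and Ajuba were above 0. In limma on log2 scores scaled to the same sum in every library, the promoters of Tead1 and Lats2 were higher at E17.5 by 0.79 (adjusted p = 0.021) and 0.33 (adjusted p = 0.0485), and the falls of Ajuba, Tead2 and Tead3 did not pass (differences of −0.38, −0.23 and −0.11, adjusted p = 0.166, 0.474 and 0.877).

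In EPDCs against the 6 epicardial libraries, no promoter of the 10 was called, by ranks or by limma at an adjusted p of 0.05, against 4.84% of all promoters higher and 7.11% lower by ranks, and 8.08% and 6.89% by limma. At an unadjusted p under 0.05, limma found 1 of the 10 higher (Tead2) and 0 lower, and the exact permutation test found 0. The share of all promoters at this unadjusted threshold was not counted, so these counts have no background beside them. The lowest exact permutation p of the 10 was 0.131, at Lats2, with 87.1, 88.3 and 89.9 in EPDCs and 88.3 to 93.5 in epicardium, and these ranges overlap.

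Of 31 further genes of the pathway, 2 promoters were called higher at E17.5 (Wwc1 and Taok1, upstream activators of the kinase cascade) and 10 lower, beside 7.87% and 18.6% of all promoters. The lower ones include Fat4, an atypical cadherin (52.6 to 63.9 at E11.5, 0 to 39.9 at E17.5 and 0 to 2.2 in EPDCs), and the TEAD cofactors Vgll2 (78.7 to 80.3 against 55.8 to 64.2) and Vgll3 (96.2 to 97.5 against 92.8 to 93.5). They also include 4 of 7 genes listed as YAP-TEAD targets: Tagln, Axl, Ccn2 and Ankrd1. These are ranks, and by fragments over genome background 7 of the 10 had a higher mean at E17.5 than at E11.5, among them Vgll3, Axl, Ccn2 and Ankrd1, while Fat4, Vgll2 and Tagln had a lower one. Tagln, a smooth muscle gene, went from 92.2 to 94.3 at E11.5 down to 80.7 to 81.6 at E17.5. In EPDCs, 4 of the 31 were higher (Wwc2, Amotl1, Axl and Mob1b) and 3 lower (Nf2, Ccn1 and F3), beside 4.84% and 7.11% of all promoters. By fragments over genome background, the EPDC means of Axl and Mob1b were not above the epicardial ones (52.5 against 52.6 and 71.1 against 71.8). Ccn1, a secreted matrix protein, lay at 70.8 to 77.2 in EPDCs and at 79.2 to 86.7 in epicardium.

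The distal regions varied more than the promoters, but the measures are unlike. A promoter value is the strongest summit within 1 kb of any start of the gene. A distal value comes from 1 window of 250 bp on each side of a summit. Of the 198, 44 (22.2%) were called in all 9 libraries, against 19.3% of all distal regions, and 37 (18.7%) were called in 1 library only, against 18.0%. By annotation, 138 lay in introns, 50 between genes, 2 in coding exons and 8 in UTRs. Tead1, which spans 227.5 kb, had 61 of them, Wwtr1 30, and Lats1 only 2.

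**Figure D2:**
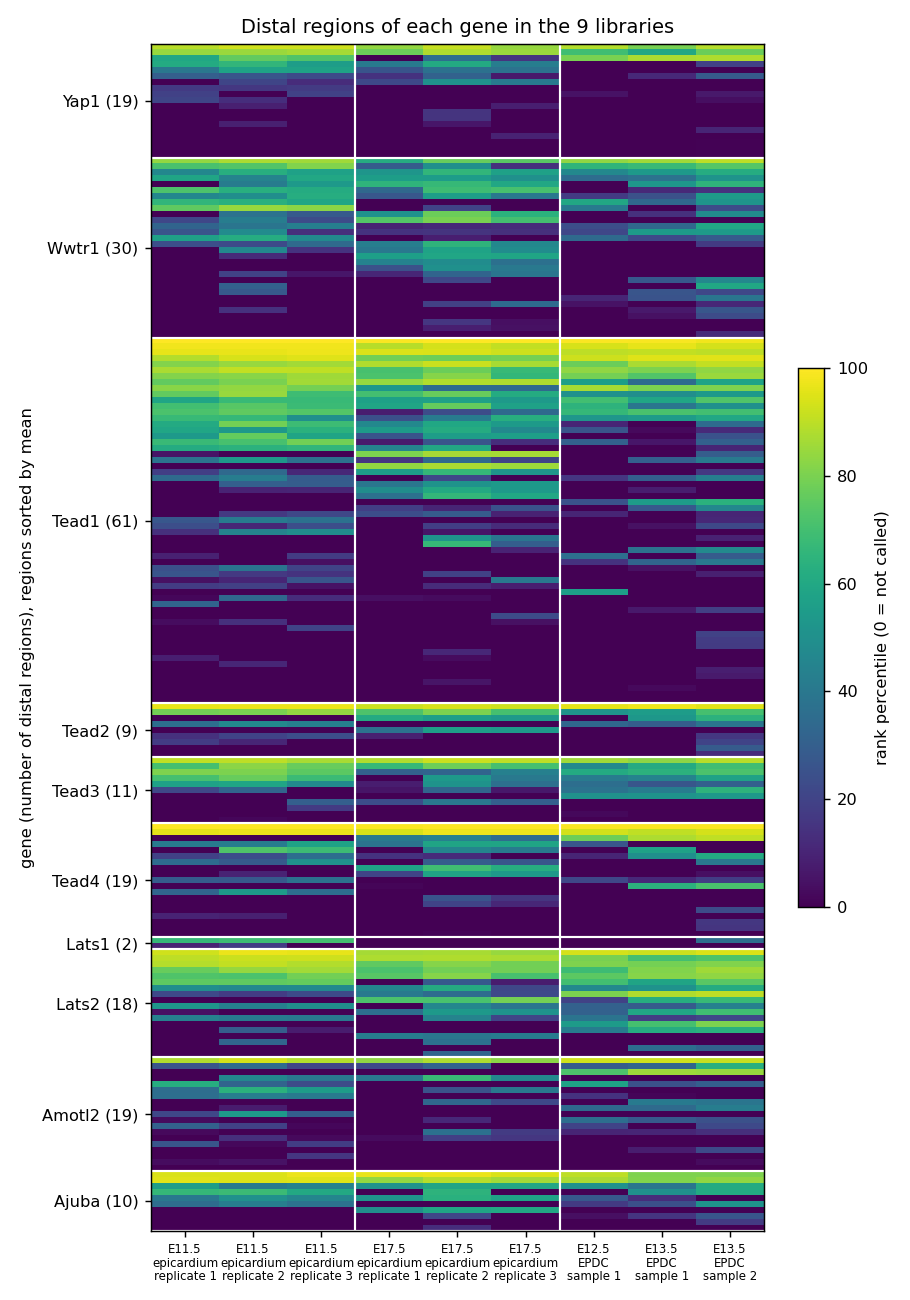
Rank percentile of the 198 distal regions (rows, grouped by gene and sorted by mean) in the 9 libraries (columns); dark is 0, not called. Tead1 holds 61 rows with a block of high values in all libraries, and Lats1 holds 2.

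Some of these were among the strongest sites of the genome. The region 22.9 kb upstream of Tead1 had percentiles of at least 99.6 in the epicardial libraries and 99.2, 99.0 and 98.0 in EPDCs, with 424 to 1038 fragments at its summit. It holds 1 TEAD match and 1 GATA match. Every EPDC library lay below every epicardial one (a difference of −1.06 points, exact permutation p = 0.0119), although ranking by fold enrichment, the log2 scaled score and limma each removed this call. The region 74.9 kb downstream of the nearest Tead4 start, between genes and 57.2 kb from the nearest Tspan9 start, reached 99.5 to 99.8 in the epicardium and 99.3 to 99.4 in EPDCs.

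Between E11.5 and E17.5, 26 of the 198 distal regions were called higher (13.1%, against 10.8% of all distal regions) and 46 lower (23.2%, against 28.2%). The E17.5 lists held 94909 to 127933 summits and those of E11.5 held 119386 to 142743. With equal numbers of top summits taken from every library the split turned to 34 higher and 28 lower, against 13.3% and 17.2% of all distal regions. Without E17.5 epicardium replicate 1, the shallowest library, 43 were higher (21.7%), and the share of all distal regions also rose, to 16.1%. The median difference was −0.46 percentile points over the 198 and −2.90 over all distal regions. The higher and lower regions were spread over the genes: Tead1 had 8 higher and 16 lower, Wwtr1 7 and 6, Lats2 3 and 4, Tead4 3 and 3, Tead2 2 and 3, Ajuba 2 and 2, Yap1 1 and 3, Amotl2 0 and 6, Tead3 0 and 2, and Lats1 0 and 1.

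**Figure D3:**
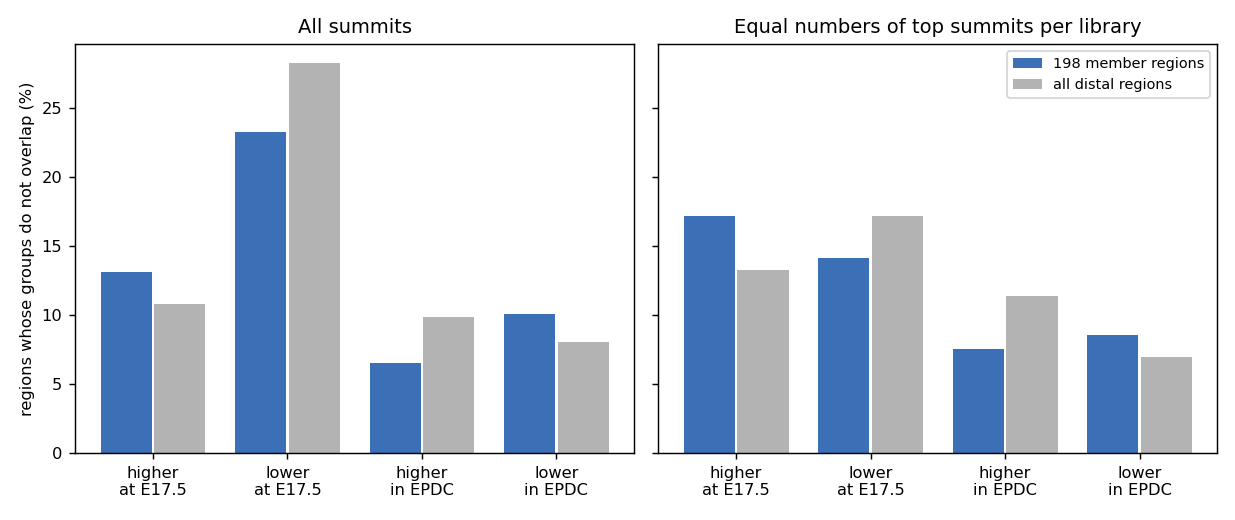
Percentage of the 198 distal regions (blue) and of all distal regions (grey) called higher or lower in each comparison, with all summits (left) and with equal numbers of top summits per library (right). On the left, lower calls outnumber higher ones at E17.5 (23.2% against 13.1% for the 198), and on the right they do not (28 regions against 34).

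The largest gain lay inside Tead1, 2.8 kb before one of its annotated starts (chr7:112688634-112689134, intron). It was called in none of the E11.5 and none of the EPDC libraries and lay at 83.9, 87.3 and 85.2 at E17.5, with 103, 200 and 173 fragments. A further Tead1 intron, 54.5 kb past the nearest start, went from 5.4, 0 and 0 to 80.2, 86.6 and 86.6 and read 0, 0 and 29.3 in EPDCs. It holds 2 TEAD matches. In both, the E11.5 and E17.5 libraries were far apart.

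At the same gene, other sites were lower at E17.5. The Tead1 intron 11.3 kb past the nearest start, with 2 TEAD matches, fell from 67.7, 70.9 and 78.6 to 7.0, 26.4 and 13.0 (means 72.4 ± 5.6 and 15.5 ± 9.9 SD, n = 3 each), and EPDCs read 31.1, 5.9 and 30.9. Tead1 had regions moving in both directions with stage. Of its 61 distal regions, 13.1% were called higher and 26.2% lower, near the 10.8% and 28.2% of all distal regions. Its promoter was called in all 9 libraries and was higher at E17.5 by ranks.

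**Figure D4:**
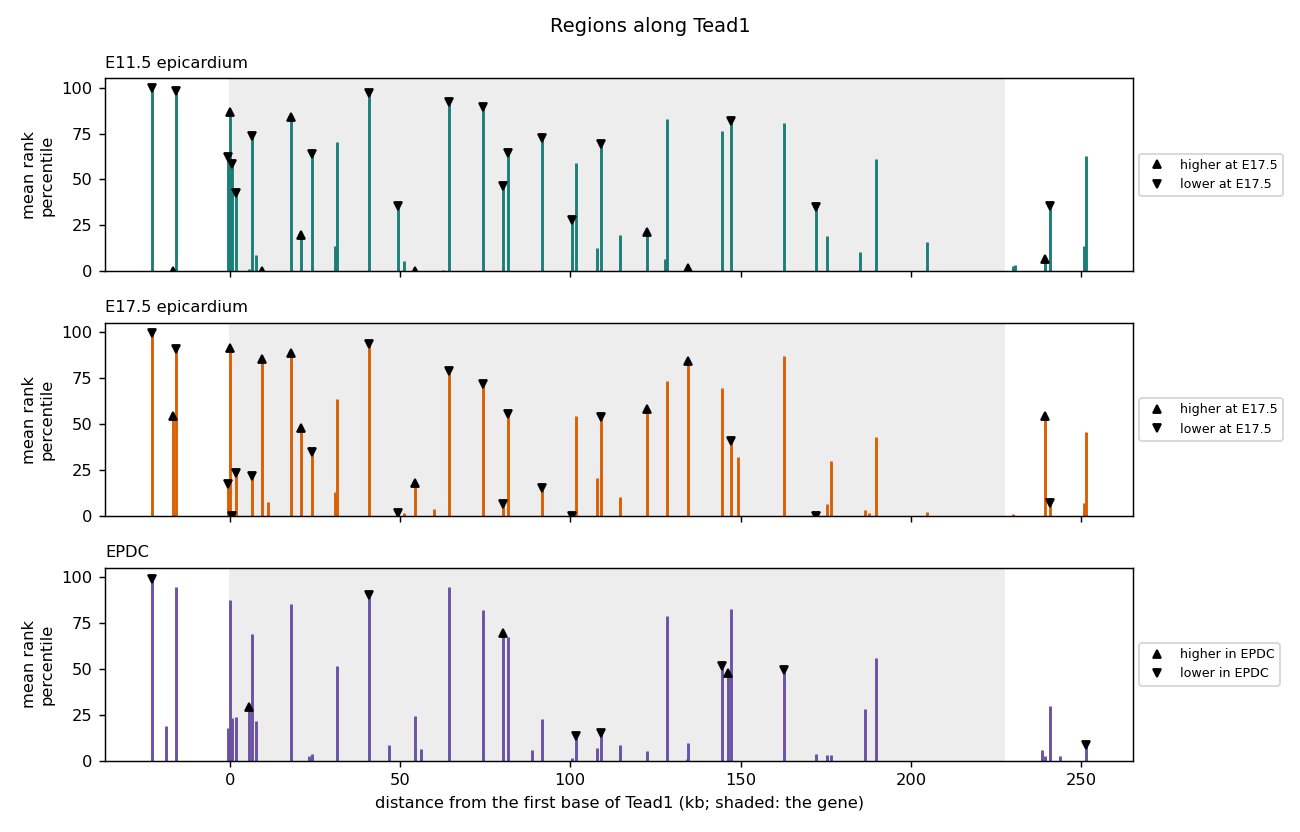
Mean rank percentile of each region along Tead1 in E11.5 epicardium, E17.5 epicardium and EPDC (3 libraries each) against distance from the first base of the gene in kb, with the gene shaded; triangles mark regions called higher or lower. Regions called higher at E17.5 (8 of them distal) lie among regions called lower (16 of them distal), and the one 2.8 kb before an annotated start lies at 0 at E11.5.

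For the co-activators, the largest change with stage was a fall 10.3 kb upstream of Wwtr1 (between genes), from 75.4, 84.5 and 82.8 at E11.5 to 0, 20.1 and 0 at E17.5, with 41.1, 0 and 22.9 in EPDCs. A Wwtr1 intron 28.9 kb past the start went from 65.7, 63.3 and 59.2 to 0 in all E17.5 libraries and read 59.8, 33.2 and 51.8 in EPDCs, so the EPDC libraries lay nearer to E11.5. It holds 1 TEAD and 1 T-box match. The strongest distal region of Wwtr1, in an intron 88.2 kb past the start, fell from 85.6 ± 1.7 to 71.0 ± 8.0 and lay at 86.4 ± 3.4 in EPDCs (n = 3 each). At Yap1, the strongest distal region, 87.0 kb downstream of the start and between genes, read 83.9 to 92.8 in epicardium and 79.5 to 88.9 in EPDCs and was called in neither comparison.

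Among the remaining TEAD genes, an intron of Tead4 4.2 kb past a start appeared at E17.5 only (57.6, 69.4 and 62.1, with 0 in the other 6 libraries) and holds 1 TEAD and 1 AP-1 match. The fifth of the largest gains counted under Tead2 but lay 24.6 kb from its start in an intron of Slc6a16, a solute carrier gene, with 61.0, 56.3 and 53.6 at E17.5, 0 at E11.5, and 0, 53.0 and 64.3 in EPDCs.

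At the kinase genes, Lats2 showed opposite changes at neighbouring sites in its introns. The site 7.3 kb before a Lats2 start was called in no E11.5 library and lay at 71.6, 71.4 and 79.2 at E17.5 and at 19.7, 62.2 and 67.3 in EPDCs. The site 2.2 kb before that start fell from 75.1, 75.7 and 76.4 to 0, 28.3 and 7.5, and EPDCs read 69.8, 58.5 and 74.5. The EPDC libraries were thus called at both sites. The region counted under Lats1, 7.4 kb upstream of it in introns of Nup43 and Pcmt1, had 66.8, 68.8 and 70.2 at E11.5 and was called in no E17.5 library.

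**Figure D5:**
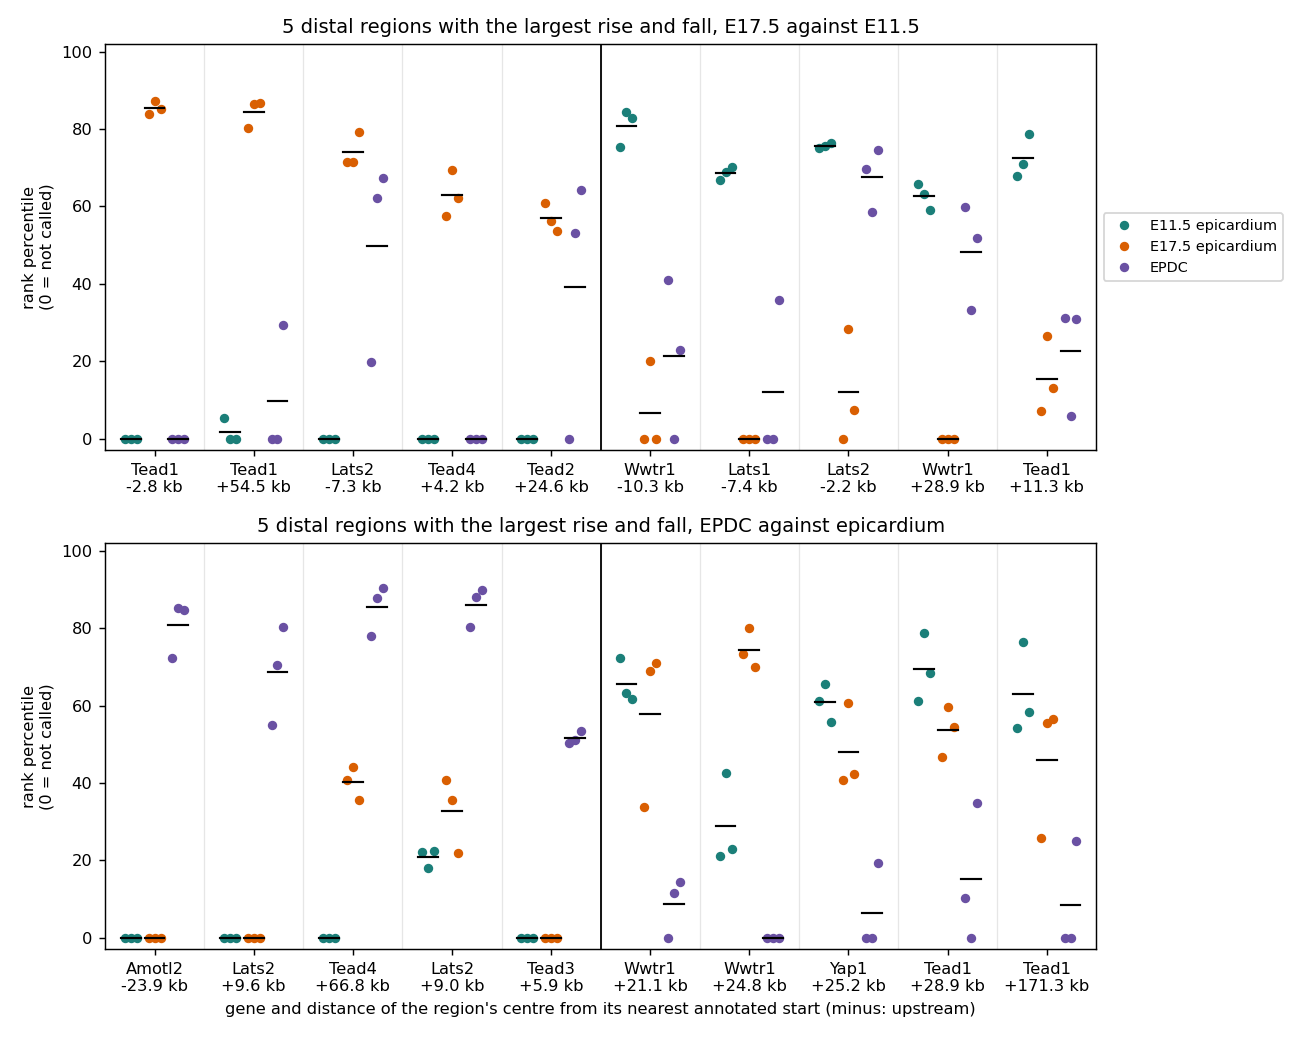
Rank percentile in the 9 libraries (points; bars are group means) of the 5 distal regions with the largest rise (left of the line) and fall (right) for E17.5 against E11.5 (top) and EPDC against epicardium (bottom). The Tead1 region 2.8 kb before a start lies at 83.9 to 87.3 at E17.5 and at 0 elsewhere, and the Amotl2 region 23.9 kb upstream lies at 72.3 to 85.3 in EPDCs and at 0 elsewhere.

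Between EPDCs and epicardium, 13 of the 198 distal regions were called higher (6.57%, against 9.85% of all distal regions) and 20 lower (10.1%, against 8.04%). The median difference was −2.50 points over the 198 and −1.99 over all. Limma called 26 higher and 54 lower (against 17.9% and 25% of all), and without E12.5 EPDC sample 1 the count of higher regions was also 26 (13.1%, against 18% of all). Regions called higher were found at Lats2 (3), Amotl2 (3), Tead1 (2), Tead3 (2), Yap1, Wwtr1 and Tead4 (1 each). Those called lower were at Tead1 (7), Yap1, Wwtr1 and Tead4 (3 each), Ajuba (2), Tead2 and Lats2 (1 each). These counts follow in part the number of regions per gene, since Tead1 held 61 of the 198. Of the 61, 11.48% were called lower and 3.28% higher, beside 10.1% and 6.57% of the 198.

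The largest gain in EPDCs was 23.9 kb upstream of Amotl2, whose product tethers YAP at cell junctions. It was called in none of the 6 epicardial libraries and lay at 72.3, 85.3 and 84.6 in EPDCs, with 73, 158 and 340 fragments. It holds 1 GATA match and no TEAD match. A Lats2 intron 9.6 kb past a start, with 1 TEAD match, was likewise at 0 in all 6 epicardial libraries and lay at 54.9, 70.6 and 80.2 in EPDCs. A Tead3 intron 5.9 kb past a start lay at 50.4, 51.2 and 53.5 in EPDCs and at 0 in the epicardium. In all, 5 of the 198 regions (2.53%, against 3.39% of all distal regions) were called in every EPDC library and in no epicardial one, and the other two lay at Wwtr1 and Tead1.

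The other 8 regions called higher in EPDCs were also called in at least 1 epicardial library, and 2 of them were among the 5 largest differences. The region 66.8 kb past a Tead4 start, between genes, lay at 0 at E11.5, at 40.8, 44.1 and 35.6 at E17.5 and at 78.0, 87.8 and 90.5 in EPDCs. The Lats2 region 9.0 kb past a start, in a UTR, lay at 17.9 to 22.3, at 21.9 to 40.8 and at 80.2 to 90.0. A Yap1 region 41.1 kb past the start, outside the 5 largest and chosen after its values were seen, read 59.5, 76.0 and 72.4 at E11.5, 0, 36.1 and 15.0 at E17.5 and 79.7, 87.3 and 88.2 in EPDCs, so it was lower at E17.5 and highest in EPDCs.

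The largest falls in EPDCs were at Wwtr1. An intron 21.1 kb past its start read 72.2, 63.1 and 61.7 at E11.5, 33.9, 68.8 and 71.0 at E17.5 and 0, 11.6 and 14.3 in EPDCs. An intron 24.8 kb past the start read 21.2, 42.5 and 23.1 at E11.5, 73.3, 80.0 and 70.1 at E17.5 and 0 in all EPDC libraries. This second region, which holds 1 TEAD and 1 GATA match, thus differed between the stages as well as from EPDCs, and with equal numbers of top summits the EPDC call was lost.

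Lower values in EPDCs were also found in a Yap1 intron 25.2 kb past the start, with 1 TEAD match (40.8 to 65.7 in epicardium against 0, 0 and 19.3), and in a Tead1 intron 28.9 kb past a start (46.8 to 78.8 against 10.2, 0 and 34.9). The fifth, 171.3 kb past a Tead1 start and 23.1 kb from the start of Rassf10, a gene of a family linked to Hippo signalling, read 25.8 to 76.4 against 0, 0 and 25.1 and holds 2 TEAD matches. Its call was lost with the stricter lists and with a summit required within 100 bp. The strongest region of Ajuba, an intron with 3 TEAD matches 4.6 kb past the start, lay at 94.2 to 96.9 in epicardium and at 90.0, 80.8 and 80.5 in EPDCs (exact permutation p = 0.0119), and its call was lost when summits were ranked by fold enrichment.

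Of the 20 regions called lower in EPDCs, 12 (60.0%) held TEAD letters, against 42.5% of all distal regions called lower. Of the 13 called higher, 6 (46.2%) held them, against 32.7%. With stage the shares were lower, at 6 of 26 regions called higher (23.1%, against 36.1%) and 14 of 46 called lower (30.4%, against 37.9%). These shares rest on few regions and were not tested.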

How the data were processed

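ATAC-seq peak lists of 9 libraries were analysed, of which 1 holds the merged technical replicates of E13.5 EPDC sample 2. According to the study's methods and the processing notes, reads were handled with the nf-core atacseq pipeline (2.0) on mm10, and MACS2 2.2.9.1 called peaks with every summit kept, using whole fragments and a q-value limit of 0.01. The deposited lists hold, for each summit, the authors' −log10 p and −log10 q, a fold enrichment (a ratio over local background), and an integer score. The values were not scaled across libraries. Because whole fragments were piled up, a peak spans the sequence between paired cuts.

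Summits on chromosomes 1 to 19, X and Y were used. Windows of 250 bp on each side of a summit were thinned from the highest score down, after −log10 p had been scaled to the same sum (1000000) in every library. Whole fragments at a summit were solved from fold enrichment and −log10 p together (whole within 0.05 for over 99.9% of summits). Annotation was GENCODE M21, whose assembly GRCm38 is mm10. The members and lists were chosen with earlier results of these data known. Named are the 10 promoters, the distal region of each gene with the highest mean percentile, and, for each comparison and direction, the 5 called regions with the largest difference in means. Where the labels name no separate litters, p-values measure the spread between pools. Alternatives were stricter lists (−log10 q of at least 5), equal numbers of top summits, ranking by fold enrichment, log2(scaled score + 1), overlap of intervals by 1 bp, summits within 100 bp (promoters 500 bp), leaving out each library, limma over all regions or promoters, and, added after seeing the data, fragments over genome background. Tests on simulated data covered the solving of fragments, the thinning of regions, the calls of groups that do not overlap, the permutation test and the stage contrast of limma. The other steps had no such test. Python 3.11.15, numpy 2.4.6, pandas 2.3.3, scipy 1.17.1, pysam 0.24.0, samtools 1.23.1, R 4.3.3 and limma 3.58.1 were used.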

Additional observations from a re-analysis of the deposited data

How the results depend on the processing

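None of the distal regions named for the largest changes changed sign in any alternative run. Of these, 3 lost their call in at least 1 setting: the Wwtr1 region 24.8 kb past the start (equal numbers), the Tead1 region 171.3 kb past a start (stricter lists, and summits near the centre) and the Lats2 region 2.2 kb before a start (limma with the replicate block). Counts and promoter directions moved with the scale. In brackets after each count stands the share of all distal regions or promoters called under the same setting. Leaving out each library in turn, distal regions higher at E17.5 ranged from 26 to 43 (11.2% to 16.1%) and lower from 46 to 61 (28.6% to 35.8%), higher in EPDC from 13 to 26 (9.94% to 18%) and lower from 20 to 27 (8.15% to 10.9%), while promoters higher at E17.5 stayed at 1 (8.49% to 14.1%), lower at E17.5 ranged from 4 to 7 (19.6% to 25.2%), with 7 without E17.5 epicardium replicate 2, and EPDC promoters were 0 higher (4.95% to 7.76%) and 0 to 1 lower (7.28% to 17.1%). With equal numbers of top summits, 28 distal regions were lower at E17.5 (17.2%), and 2 promoters were higher (16.6%) and 1 lower (11.2%). By fold enrichment, 12 distal regions were lower in EPDC (7.62%), no promoter was higher at E17.5 (8.81%) and 1 was higher in EPDC (9.04%). By log2 scaled score, 4 promoters were higher at E17.5 (23.7%) and 0 lower (8.85%). By fragments over genome background, 43 distal regions were higher (16.5%) and 30 lower (22.1%) at E17.5, 8 were higher in EPDC (8.03%), and 8 promoters were higher (49.5%) and 0 lower (6.04%) at E17.5. By limma, 26 distal regions were higher (17.9%) and 54 lower (25%) in EPDC, and 2 promoters were higher (2517 of all 21829) and 0 lower (5.28%) at E17.5. The cause was not tested.

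Same-numbered libraries of the 2 stages did not deviate together (correlations of deviations from −0.010 to 0.023), so the numbers do not pair them. With the replicate block, limma called 20 distal regions higher (7.6%) and 20 lower (15.7%) at E17.5, and 0 promoters in each direction (1.6% and 1.32%). By the sign of the 3 same-numbered pairs, 31 were higher (12.8%) and 58 lower (32%), with 1 (12%) and 6 (25.5%) promoters.

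Some single differences between E17.5 and E11.5 changed sign. Here and for EPDCs below, they are listed only where the main run or the alternative called the difference. Small differences called in neither also changed sign and are not listed. By log2 scaled score they were positive for the promoters of Yap1 (0.23), Wwtr1 (0.046, also in limma with and without the replicate block) and Lats1 (0.26), for the Tead1 region 22.9 kb upstream (0.027, also in both limma fits) and for the Tead4 region 74.9 kb downstream (0.20). By fragments over background they were positive for the promoters of Yap1 (28.7), Wwtr1 (32.1), Tead2 (0.71), Tead3 (11.8), Tead4 (35.7), Lats1 (21.6) and Ajuba (4.76) and for the same 2 regions (30.0 and 51.3). By fold enrichment they were 1.37 for the Tead1 region and 0.59 for the Amotl2 region 6.1 kb downstream. Leaving out each library, the Lats2 promoter ranged from −1.45 (without E17.5 epicardium replicate 2) to 1.16. For EPDC against epicardium, the Tead4 region read 0.37 by fold enrichment and 0.037 by log2 scaled score and in limma. An uncalled value is limited by depth: the weakest called summit of E13.5 EPDC sample 2 held 24 fragments.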

Other observations

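Some of the 198 distal regions were called in every library of one group and in no other library, and of these 8 belonged to E17.5 epicardium (4.04%, against 3.21% of all distal regions), 5 to EPDCs (2.53% against 3.39%) and 4 to E11.5 epicardium (2.02% against 4.23%). A further 5 (2.53% against 3.9%) were called in every E11.5 and EPDC library and in no E17.5 library, at Wwtr1, Tead2, Tead4, Amotl2 and Ajuba, and 2 (1.01% against 0.575%) were called in every E17.5 and EPDC library and in no E11.5 library, at Tead4 and Lats2. Regions found in all 6 epicardial libraries and in no EPDC library numbered 2 (1.01% against 2.29%), and both lay in introns of the co-activators Yap1 and Wwtr1.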
